A study of Bubalus bubalis with 12 samples.

Results

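The machinery of progesterone synthesis was followed as 10 genes, STAR, CYP11A1, HSD3B1, FDX1, POR, TSPO, HSD3B7, HSD17B1, HSD17B4 and HSD11B1, out of 9155 genes with a single symbol on the array. They were taken by exact gene symbol from the platform annotation, by a rule that uses no measured value but was set with earlier results of these data known, and had 11 of the 24016 probe sets tested. HSD17B4 had 2 probe sets, and the other 9 genes had 1 each. The tissue was whole corpus luteum (CL) of buffalo cows (Bubalus bubalis) with a history of normal cycles, on day 11 of the estrous cycle. Control CL were from untreated animals (0 h, n = 4), and treated CL were from animals given 500 µg of cloprostenol, an analogue of prostaglandin F2α (PGF2α), by intramuscular injection and were collected 3 h (n = 2), 6 h (n = 3) and 18 h (n = 3) later. Each of the 12 arrays held 1 animal, the arrays were GeneChip Bovine Genome Arrays with probes made to cattle sequence, and the values are log2 intensities made by robust multichip average (RMA). Since a CL holds several cell types, fewer luteal cells and less RNA per luteal cell cannot be told apart in these values.

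Progesterone is made from cholesterol in the steroidogenic luteal cells. STAR brings cholesterol to the inner mitochondrial membrane, where CYP11A1, the side chain cleavage enzyme, converts it to pregnenolone with electrons handed on by the iron-sulfur protein FDX1, and 3β-hydroxysteroid dehydrogenase (HSD3B1) then turns pregnenolone into progesterone. Cloprostenol ends the life of the CL, and a fall of progesterone is an early sign of that process. The remaining 6 genes lie around this core. TSPO is a cholesterol-binding protein of the outer mitochondrial membrane whose need in steroid synthesis is debated, and POR passes electrons to P450 enzymes of the endoplasmic reticulum and not to CYP11A1. HSD3B7 acts in bile acid synthesis, HSD17B1 makes estradiol from estrone, HSD17B4 is a peroxisomal enzyme of fatty acid breakdown that also oxidises estradiol, and HSD11B1 regenerates active glucocorticoid.

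Some arrays stood apart and touch the values below. Control replicates 1 and 4 were nearly alike, with 6 probe sets over 2-fold apart where 220 to 1306 were found for the remaining replicate pairs, and they were kept as 2 animals as labelled. Control replicate 3 differed by over 2-fold from each other control at 575 to 802 probe sets. The 2 animals at 3 h were the farthest apart of all, at 1306 probe sets, and their values for TSPO and HSD3B7 lay on opposite sides of the controls.

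At 18 h post PGF2α the 3 genes STAR, FDX1 and HSD3B1 of the core were down regulated, as was HSD17B4 at the brighter of its 2 probe sets. HSD3B1 fell the farthest, and CYP11A1 did not pass the test. The calls of STAR and HSD17B4 were lost when certain single arrays were left out, as given below. Of the 11 probe sets, 4 were called lower and 0 higher at 18 h against 0 h (limma, Benjamini-Hochberg adjusted p under 0.05), where 6.63% of all 24016 probe sets were called lower, 5.71% higher and 12.3% in either direction. With control replicate 3 left out and replicates 1 and 4 averaged, a setting chosen after seeing the data, HSD3B1 and FDX1 were called (2 of 11). The share of all probe sets called in that setting is not given here, so this count cannot be set against the shares above. In the fit to all arrays 8 of 11 had an unadjusted p under 0.05, against 26.1% of all probe sets. The median difference over the 11 was -0.32 log2, against -0.02 over all probe sets. The 18 h and 0 h values did not overlap for 7 of the 11, against 25.4% of all probe sets.

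**Figure D1:**
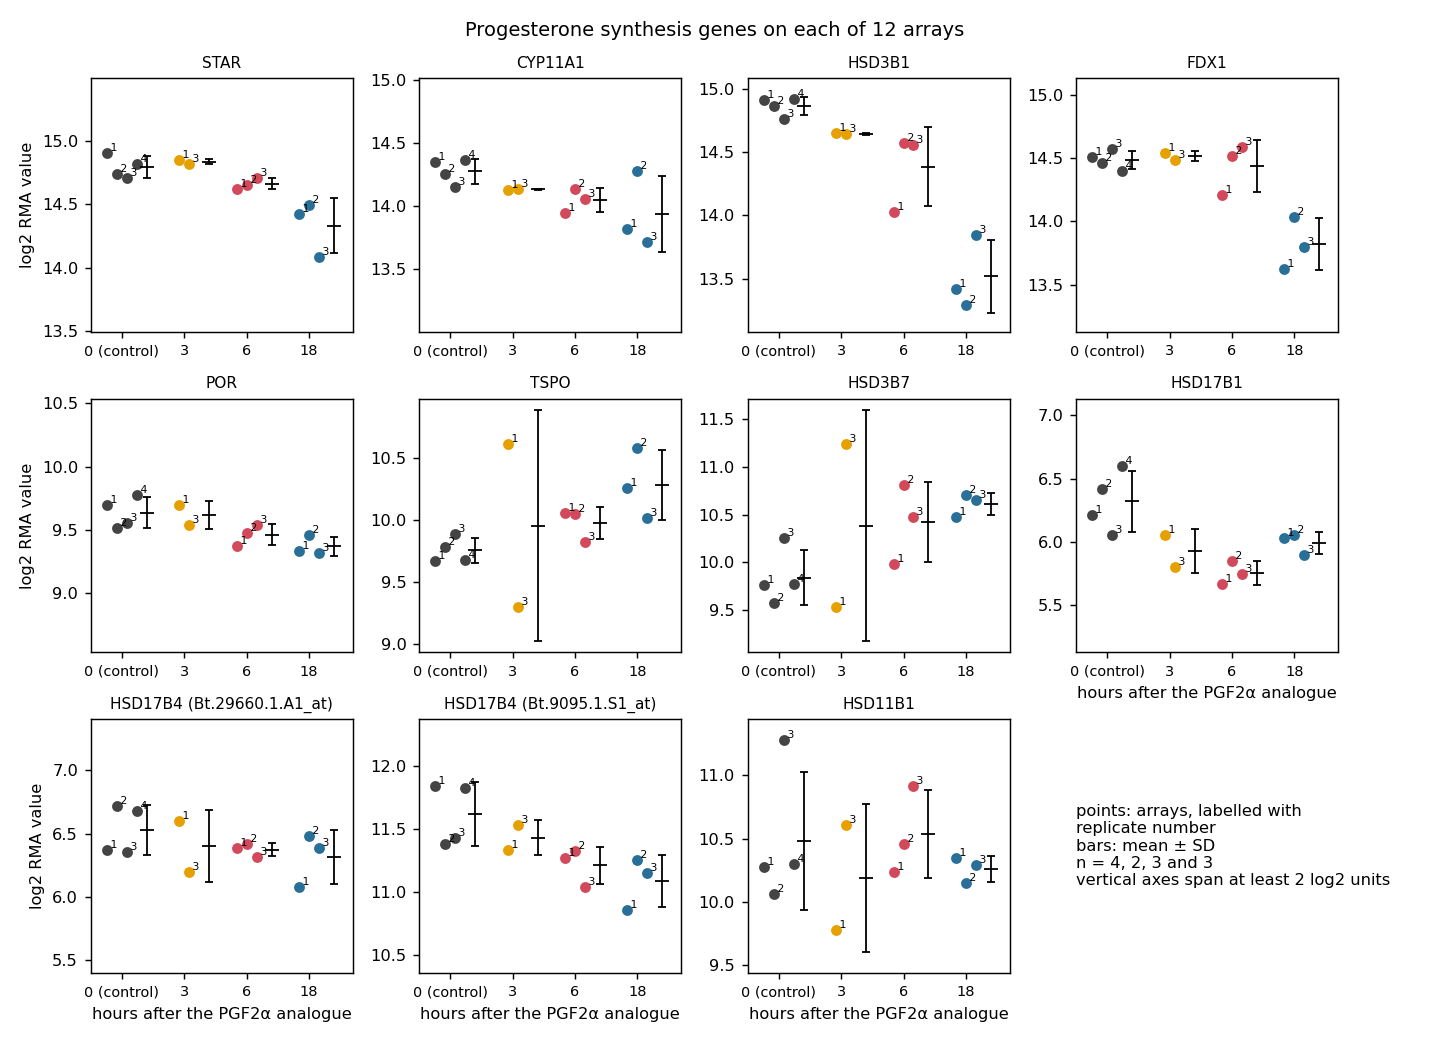
Log2 RMA value of each of the 11 probe sets on the 12 arrays (vertical axis, a scale for each panel) at 0, 3, 6 and 18 h (horizontal axis). Each point is 1 animal, and bars are the group mean and SD. HSD3B1 lies between 14.76 and 14.92 at 0 h and between 13.29 and 13.85 at 18 h, and the 2 points at 3 h are far apart for TSPO and HSD3B7.

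STAR, the carrier at the first step, read 14.91, 14.74, 14.71 and 14.82 in control replicates 1 to 4. It read 14.86 and 14.82 at 3 h (replicates 1 and 3), 14.62, 14.65 and 14.71 at 6 h, and 14.42, 14.49 and 14.08 at 18 h (replicates 1 to 3). Both animals at 3 h lay within the control range, and every animal at 18 h lay below every other animal. The mean was 14.33 ± 0.22 at 18 h (SD, n = 3) and 14.80 ± 0.09 at 0 h (n = 4), a fall of 1.38-fold (log2 -0.46 ± 0.11 SE, 95% interval -0.69 to -0.23, limma adjusted p = 0.0151). The call rested in part on the lowest animal, since without 18 h replicate 3 the difference was -0.34 and the limma adjusted p was 0.0542. At 6 h the highest value, 14.709, was just under the lowest control, 14.712, and the difference was -0.13 ± 0.11 (limma adjusted p = 0.494).

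CYP11A1, the cleavage enzyme, read 14.35, 14.25, 14.15 and 14.36 in controls. It read 14.13 and 14.14 at 3 h, 13.95, 14.13 and 14.06 at 6 h, and 13.82, 14.28 and 13.72 at 18 h. All 5 animals at 3 h and 6 h lay below the controls, whereas 18 h replicate 2 lay among the controls and the other 2 animals at 18 h had the lowest values of the gene. The SD at 18 h was 0.30, against 0.10 at 0 h. The differences from 0 h were -0.15 ± 0.14 at 3 h, -0.23 ± 0.13 at 6 h and -0.34 ± 0.13 at 18 h, and none was called (limma adjusted p = 0.792, 0.295 and 0.113). Without 18 h replicate 2 the 18 h difference was -0.51 and was called (limma adjusted p = 0.0143). With all 3 animals the 95% interval of the difference, before adjustment, was -0.62 to -0.06.

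HSD3B1, which makes progesterone itself, read 14.91, 14.86, 14.76 and 14.92 in controls. It read 14.65 and 14.64 at 3 h, 14.03, 14.57 and 14.56 at 6 h, and 13.42, 13.29 and 13.85 at 18 h. Every animal at 3 h lay below every control, every animal at 6 h below every animal at 3 h, and every animal at 18 h below every animal at 6 h. The mean was 13.52 ± 0.29 at 18 h (SD, n = 3) and 14.86 ± 0.07 at 0 h (n = 4), which is 2.54-fold lower at 18 h (log2 -1.35 ± 0.16 SE, 95% interval -1.69 to -1.004, limma adjusted p = 5.25e-04). Among all probe sets it was number 184 by size of fall and number 112 by p at 18 h. It was the only one of the 11 both called and lower by 2-fold or more, as 1.474% of all probe sets were.

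For HSD3B1 the steps between neighbouring times were not called, although no neighbouring groups overlapped. The difference was -0.22 ± 0.18 for 3 h against 0 h (limma adjusted p = 0.73), -0.26 ± 0.19 for 6 h against 3 h (0.623) and -0.87 ± 0.17 for 18 h against 6 h (0.0527). For 6 h against 0 h it was -0.48 ± 0.16 with a limma adjusted p of 0.0726, which became 0.0483 without 18 h replicate 3, an array that enters through the shared estimate of spread. For 18 h against 3 h it was -1.13 ± 0.19 and called (limma adjusted p = 0.0117). The 18 h against 6 h difference was called without 3 h replicate 1 or 3 (limma adjusted p = 0.0429 each), without 6 h replicate 1 (-1.05, 0.0202) and without 18 h replicate 3 (-1.03, 0.0482).

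FDX1, the electron carrier of CYP11A1, read 14.51, 14.46, 14.57 and 14.40 in controls. It read 14.54 and 14.49 at 3 h, 14.21, 14.52 and 14.59 at 6 h, and 13.63, 14.03 and 13.80 at 18 h. Both animals at 3 h and one at 6 h lay within the control range, 6 h replicate 1 lay below it, 6 h replicate 3 just above it, and the animals at 18 h were below all others. The mean was 13.82 ± 0.20 at 18 h (SD, n = 3) and 14.49 ± 0.07 at 0 h (n = 4), a fall of 1.58-fold (log2 -0.66 ± 0.12 SE, 95% interval -0.92 to -0.40, limma adjusted p = 0.00456). At 6 h the difference from 0 h was -0.05 ± 0.12 (limma adjusted p = 0.872), and that of 18 h against 6 h was -0.62 ± 0.13 (0.0676), or -0.73 without 6 h replicate 1 (0.0393). Against 3 h the 18 h value was lower by -0.70 ± 0.14 log2 and called (limma adjusted p = 0.0274), a call lost without 3 h replicate 1 (0.0733), 18 h replicate 1 (0.0937) or 18 h replicate 3 (0.067).

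At 3 h and 6 h the differences of FDX1 and STAR from 0 h lay between -0.13 and 0.04 log2, and those of HSD3B1 and CYP11A1 between -0.48 and -0.15. The ratio of the 6 h to the 18 h difference was 0.07 for FDX1, 0.29 for STAR, 0.36 for HSD3B1 and 0.69 for CYP11A1, as a description with no test. None of these genes was called at 6 h, and CYP11A1 was not called at 18 h. Single arrays moved the ratios: the 6 h difference of FDX1 was 0.07 without 6 h replicate 1. The 18 h difference of CYP11A1 was -0.51 without 18 h replicate 2. On single arrays HSD3B1 minus STAR lay between -1.20 and -0.24 log2 at 18 h, between -0.60 and -0.08 at 6 h, between -0.21 and -0.18 at 3 h and between 0.01 and 0.12 at 0 h. The 8 treated CL thus lay apart from the 4 controls, as they did by HSD3B1 alone (14.65 or less against 14.76 or more). Differences of this kind are of 2 probe sets and not of 2 amounts of RNA, so their sign has no meaning of its own. CYP11A1 minus STAR lay between -0.60 and -0.21 at 18 h and between -0.56 and -0.46 at 0 h, with the 18 h range spanning that of 0 h.

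**Figure D2:**
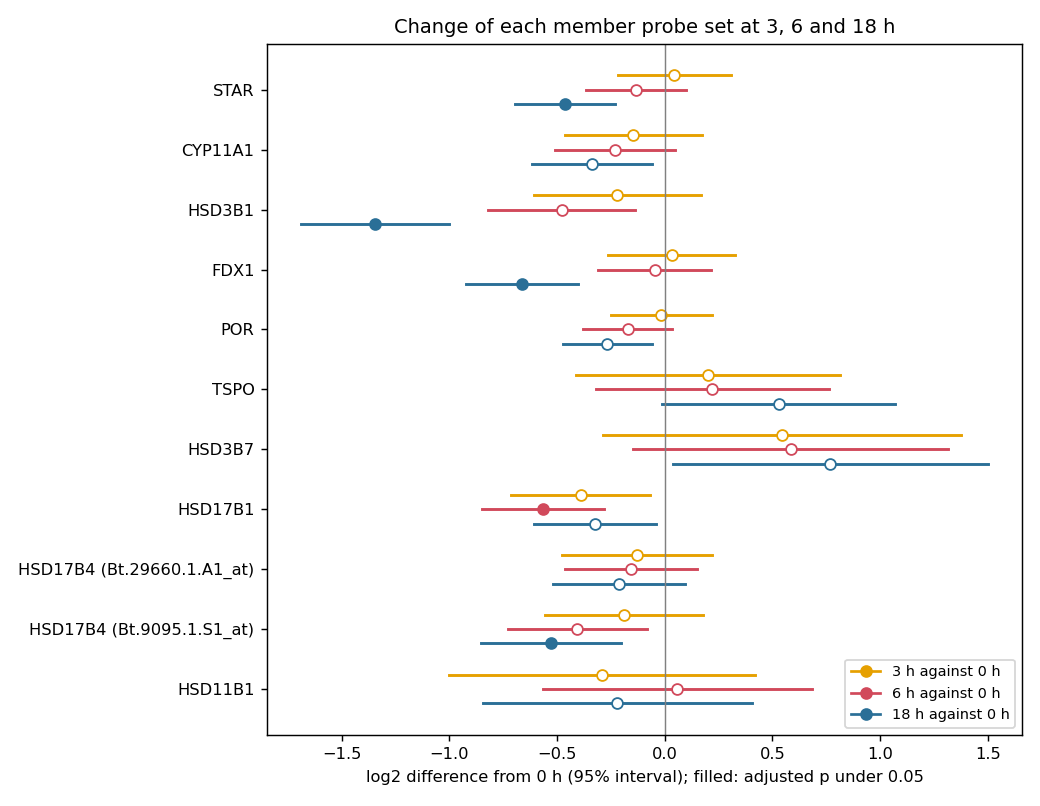
Log2 difference from 0 h of each of the 11 probe sets at 3, 6 and 18 h (horizontal axis) with its 95% interval from limma, the lower of the HSD17B4 rows being the brighter probe set. Filled markers passed an adjusted p under 0.05. The 4 filled markers at 18 h and the one at 6 h, for HSD17B1, are all below 0, with HSD3B1 at -1.35 the lowest.

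The controls of the core genes lay close to the top of the scale. The highest value of any probe set on an array was between 15.15 and 15.33, and the control means lay below the highest value of their own array by 0.35 log2 for HSD3B1, 0.42 for STAR, 0.73 for FDX1 and 0.94 for CYP11A1. In controls only 4 to 11 of 24016 probe sets were brighter than HSD3B1 and 5 to 14 were brighter than STAR, against 25 to 45 for FDX1 and 53 to 78 for CYP11A1. At 18 h there were 121 to 215 above HSD3B1, 29 to 83 above STAR, 83 to 154 above FDX1 and 59 to 145 above CYP11A1. The other 7 member probe sets had control means between 6.32 (HSD17B1) and 11.62 (the brighter one of HSD17B4).

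Near the top, control values spread less. The 93 probe sets with a control mean of 14 or more (0.387% of all) held the 4 core genes. Among them the median SD of controls was 0.05 log2, against 0.16 among the 2319 probe sets with control means from 10 to 12. At 18 h 11.8% of the 93 were called (8 lower and 3 higher), close to the 12.3% of all probe sets, where 7.28% were called among the 15165 with control means under 8 and 24.8% both from 10 to 12 and from 12 to 14. Their differences at 18 h ran from -1.71 to 0.83 log2, and the only falls of over 1 log2 were those of ALDH1A1 and of HSD3B1 itself. Whether falls were made smaller there was not tested. By size of fall among the 93, HSD3B1 was number 2, FDX1 number 4, STAR number 6 and CYP11A1 number 12. The largest was ALDH1A1, which makes retinoic acid from retinal (-1.71 log2, limma adjusted p = 9.33e-04), and number 3 was HMGCS1, an enzyme of cholesterol synthesis (-0.95, adjusted p = 0.00223). At 6 h 4 of the 93 were called higher and 0 lower (4.3%). Whether probes of the 4 genes were saturated was not tested, since no probe-level values were used.

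**Figure D3:**
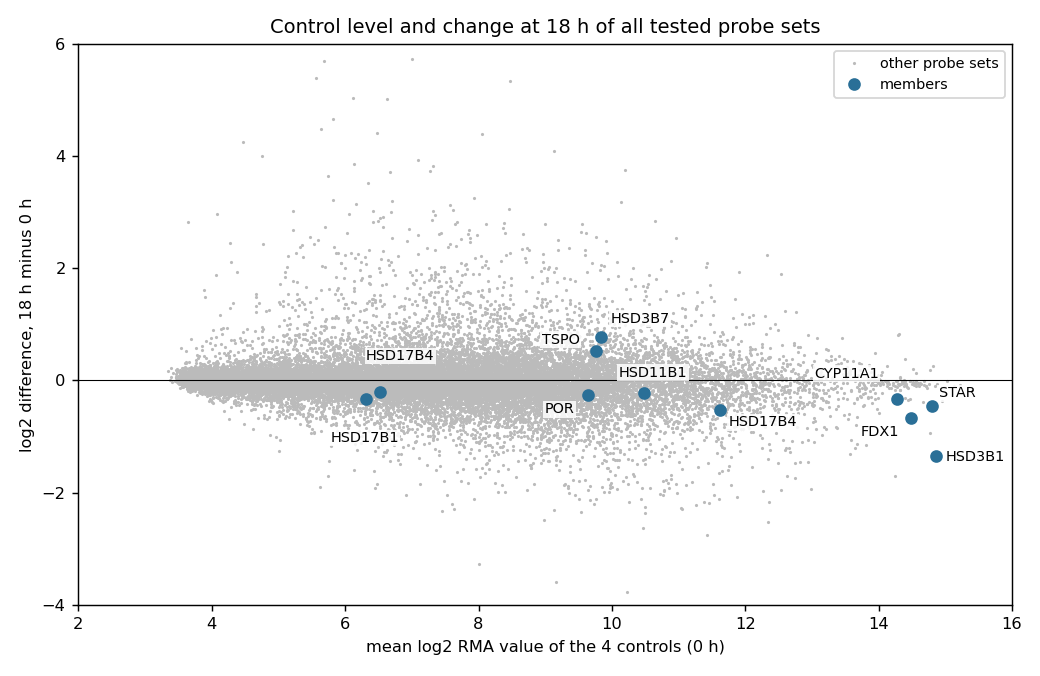
Log2 difference of 18 h against 0 h (vertical axis) by the mean log2 value of the 4 controls (horizontal axis) for all 24016 probe sets in grey, with the 11 member probe sets marked. Changes are narrower at the right end, where HSD3B1, STAR, FDX1 and CYP11A1 lie at control means over 14.

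Of the genes around the core, HSD17B4 and HSD17B1 were called in 1 comparison each. HSD17B4 read 11.84, 11.38, 11.43 and 11.83 in controls at the brighter of its probe sets. It read 11.33 and 11.53 at 3 h, 11.27, 11.32 and 11.04 at 6 h, and 10.86, 11.26 and 11.15 at 18 h. Control replicates 1 and 4, the 2 arrays that were so alike, were the high ones, and all animals at 6 h and 18 h lay below all controls. The fall at 18 h was 1.44-fold (log2 -0.53 ± 0.15 SE, 95% interval -0.85 to -0.20, limma adjusted p = 0.0388), and at 6 h the difference was -0.41 ± 0.15 (0.106). The 18 h call was lost when any of 6 arrays was left out, namely control replicate 1 (-0.45, limma adjusted p = 0.108), control replicate 4 (-0.46, 0.108), 6 h replicate 1 (0.0521), 6 h replicate 2 (0.0515), 18 h replicate 1 (-0.41, 0.167) or 18 h replicate 3 (-0.56, 0.0794). It was also lost with control replicates 1 and 4 averaged (-0.46, adjusted p = 0.107). The dimmer probe set of the gene lay between 6.08 and 6.72 on all arrays and stood at -0.21 ± 0.14 at 18 h (limma adjusted p = 0.385).

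HSD17B1 was dim and was the only member called at 6 h. It read 6.21, 6.42, 6.05 and 6.60 in controls. It read 6.05 and 5.81 at 3 h, 5.66, 5.85 and 5.75 at 6 h, and 6.03, 6.06 and 5.90 at 18 h. The animals at 6 h lay below all controls, whereas the 18 h values overlapped the lowest control. The difference was -0.57 ± 0.13 at 6 h (95% interval -0.85 to -0.28, limma adjusted p = 0.0186), a fall of 1.48-fold, and -0.32 ± 0.13 at 18 h (0.132). The 6 h call was lost without 6 h replicate 1 (-0.52, limma adjusted p = 0.0777) or 6 h replicate 3 (-0.56, 0.052), and the 18 h difference was called without control replicate 3 (-0.41, 0.0429). On each array 28.3% to 41.6% of probe sets were dimmer than HSD17B1, and detection calls were not used here. Over the 11 probe sets, 1 was called at 6 h (lower), where 6.08% of all probe sets were called lower, 5.26% higher and 11.3% in either direction. Groups did not overlap for 5 of 11, against 25.7% of all.

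TSPO and HSD3B7, of outer mitochondrial cholesterol handling and bile acid synthesis, were the only members with higher means at 18 h, and neither was called. TSPO read 9.67, 9.78, 9.89 and 9.68 in controls. It read 10.61 and 9.30 at 3 h, 10.06, 10.05 and 9.83 at 6 h, and 10.26, 10.58 and 10.02 at 18 h. All 18 h values were above all controls, and at 3 h replicate 1 was the highest and replicate 3 the lowest of all 12. The difference was 0.53 ± 0.25 at 18 h (95% interval -0.01 to 1.07, limma adjusted p = 0.203).

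HSD3B7 read 9.76, 9.57, 10.25 and 9.77 in controls. It read 9.53 and 11.24 at 3 h, 9.99, 10.81 and 10.48 at 6 h, and 10.48, 10.71 and 10.65 at 18 h. Again all 18 h values were above all controls, with control replicate 3 the highest control, and at 3 h replicate 3 was the highest of all 12 arrays and replicate 1 the lowest. The difference was 0.77 ± 0.33 at 18 h (95% interval 0.04 to 1.501, limma adjusted p = 0.169). The spread of the pair at 3 h enters the shared error of both genes, and without 3 h replicate 1 or replicate 3 both 18 h differences were called (limma adjusted p = 0.0211 for TSPO and 0.0249 for HSD3B7). Without 3 h replicate 1, which leaves a single animal at 3 h taken to vary like the other groups, HSD3B7 was called at 3 h against 0 h (1.40, limma adjusted p = 0.0362) and TSPO at 18 h against 3 h (0.99, 0.0254).

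POR and HSD11B1 had no call in any comparison. POR lay between 9.31 and 9.46 at 18 h and between 9.51 and 9.78 at 0 h, without overlap, and the difference was -0.27 ± 0.09 (95% interval -0.47 to -0.06, limma adjusted p = 0.0934). HSD11B1 ranged from 10.15 to 10.35 at 18 h and from 10.06 to 11.28 at 0 h, where control replicate 3 was the high one, and stood at -0.22 ± 0.28 (limma adjusted p = 0.70). Its interval, -0.84 to 0.41, holds falls as large as those of HSD17B4, STAR and FDX1.

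In the other comparisons few members passed. At 3 h against 0 h 0 of the 11 were called by limma and 1 had an unadjusted p under 0.05 (HSD17B1, -0.39 ± 0.15, adjusted p = 0.416), while 0.0208% of all probe sets were called and 9.89% had an unadjusted p under 0.05. The groups did not overlap for CYP11A1 and HSD3B1, against 14.4% of all probe sets. At 18 h against 6 h 0 were called and 3 had an unadjusted p under 0.05 (HSD3B1, FDX1 and STAR), where 0.45% of all were called and 11.3% had such an unadjusted p. Groups did not overlap for 4 of 11, against 19.9% of all. At 18 h against 3 h 2 were called, both lower (HSD3B1 and FDX1), where 1.11% of all were called lower and 2.84% in either direction, and STAR stood at -0.51 ± 0.13 (limma adjusted p = 0.0565, and 0.0392 to 0.0473 under the 3 settings that called it). Groups did not overlap for 5 of 11, against 28.4% of all. At 6 h against 3 h 0 were called and 0 had an unadjusted p under 0.05 by limma, where 0.237% of all were called and 12.6% had such an unadjusted p, and groups did not overlap for 4 of 11, against 26.7% of all. By the moderated F test over the 3 times against 0 h, STAR (adjusted p = 0.0394), HSD3B1 (0.0023) and FDX1 (0.0122) were called, 3 of 11 where 10.9% of all were called.

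Around the members, the receptors and transcription factors that govern luteal steroid synthesis made up the list with the most genes called lower. Lists of regulators, mitochondrial cholesterol handling, electron donors and other steroid enzymes held 69 genes, of which 46 were measured on 80 probe sets. By the brightest probe set of each gene, 11 were called lower and 2 higher at 18 h against 0 h, and 7 lower and 0 higher at 6 h, beside 6.63% lower and 5.71% higher of all probe sets at 18 h and 6.08% lower and 5.26% higher at 6 h. The probe sets in these counts were picked for brightness, and the called share of all probe sets differed with level. At 18 h it was 7.28% at control means under 8, 19.3% from 8 to 10 and 24.8% from 10 to 12. Since the counts were not matched for level, they do not show an excess over probe sets of like brightness. Over the 80 probe sets 21 were called at 18 h, beside 12.3% of all probe sets in either direction. The count was 13 with control replicates 1 and 4 averaged, 9 without 18 h replicate 1, 12 without control replicate 1, and 13 without control replicate 4 or 18 h replicate 3. The share of all probe sets called under these other settings is not given here. The median difference of the 46 was -0.15 log2 at 18 h, against -0.02 over all probe sets. Of 14 regulators 7 were lower and 0 higher at 18 h, of 8 genes of mitochondrial cholesterol handling 2 were lower, of 5 electron donors 1 was lower and 1 higher, and of 19 other steroid enzymes 1 was lower and 1 higher, which is near the share of all probe sets.

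The largest fall among them was that of LHCGR, the receptor of luteinizing hormone, at -2.76 ± 0.61 (limma adjusted p = 0.0128) with 2 of its 3 probe sets called. The nuclear receptors NR5A2 (-1.98 ± 0.28, limma adjusted p = 0.00145) and NR5A1 (-1.21 ± 0.26, 0.0112, 2 of 4 probe sets called), which bind promoters of steroidogenic genes, were lower, as was their repressor NR0B1 (-1.58 ± 0.45, 0.041, 1 of 2). At 6 h NR5A1 stood at -1.48 ± 0.26 and NR5A2 at -1.15 ± 0.28, both called, and their difference from the core genes, which were not called at 6 h, was not tested. PTGFR, the receptor of PGF2α, was lower at all 3 of its probe sets, by -1.31 ± 0.11 at the one with a control mean of 13.57 and by -2.18 ± 0.27 and -2.11 ± 0.34 at those with control means of 11.45 and 11.61. The brightest of them showed the smallest difference, and whether the 3 differ was not tested.

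The transcription factors CEBPB (-0.93 ± 0.27) and GATA4 (-0.45 ± 0.13) were lower at 18 h as well, as were SCP2 (-0.48 ± 0.11), a carrier of sterols, and MFN2 (-0.45 ± 0.10), which fuses mitochondria. Of the electron donors CYB5R3, cytochrome b5 reductase, was lower (-1.19 ± 0.25, limma adjusted p = 0.0103) and PGRMC1, a haem-binding membrane protein, was higher (0.63 ± 0.14, 0.0145, 1 of 2 probe sets). AKR1B1, an aldo-keto reductase that in cattle also acts in prostaglandin F2α synthesis, was higher (0.64 ± 0.16, 0.0239). CYP19A1, the aromatase, was lower at 6 h (-1.49 ± 0.25) and at 18 h (-1.87 ± 0.25, limma adjusted p = 0.001) at its brightest of 4 probe sets, the only one called. CREM, a cAMP-responsive factor, and CYP11B1, of corticosteroid synthesis, were called lower at 18 h only at dimmer probe sets (-1.58 and -0.68 for CREM and -0.90 for CYP11B1).

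**Figure D4:**
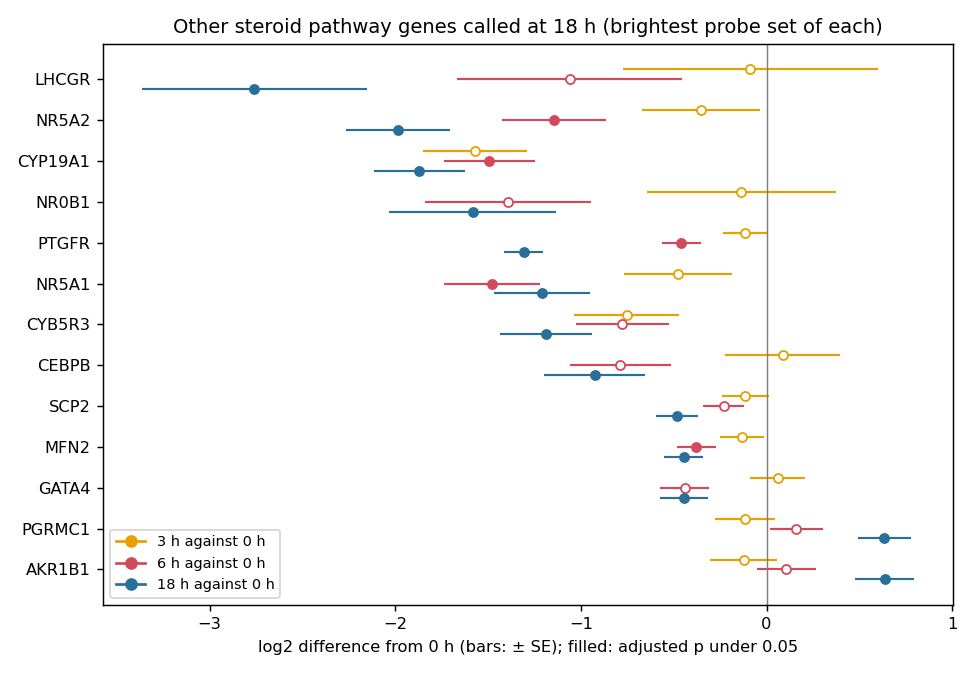
Log2 difference from 0 h at 3, 6 and 18 h (horizontal axis, bars are the standard error) for the wider pathway genes called at 18 h at their brightest probe set. Filled markers passed an adjusted p under 0.05. At 18 h LHCGR at -2.76 is the lowest, and PGRMC1 at 0.63 and AKR1B1 at 0.64 are the 2 above 0.

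Markers of the cell types in a CL were read on the same arrays, and their counts of calls at 18 h stand beside 5.71% higher and 6.63% lower of all probe sets. They too were read at the brightest probe set of each gene, and the counts were not matched for level. In controls the means of the luteal markers OXT (14.95), SCARB1 (14.47), PTGFR (13.57) and LHCGR (11.43) were high, while PGR (4.60) and PRLR (6.65) were dim. By the mean over all arrays, treated ones included, OXT, SCARB1, PTGFR and LHCGR were above 90.9% or more of all probe sets. Of 9 luteal markers measured 4 were lower and 0 higher at 18 h (median -0.99 log2). All 4 were regulators named and counted above (LHCGR, PTGFR, NR5A1 and NR5A2), and OXT and SCARB1 were not called. The mean level of the 9 per array was 9.45 to 9.84 at 18 h and 10.32 to 10.83 at 0 h. Of 9 endothelial markers 3 were higher (9.16 to 9.28 at 18 h and 8.81 to 9.10 at 0 h), of 9 smooth muscle and pericyte markers 3 were higher (10.19 to 10.55 at 18 h and 9.25 to 10.07 at 0 h), and of 8 fibroblast markers 3 were higher (12.11 to 12.42 at 18 h and 11.34 to 12.11 at 0 h), with 0 lower in each. Of 9 macrophage markers 3 were higher and 0 lower (8.78 to 9.54 at 18 h and 8.001 to 9.53 at 0 h), of 8 lymphocyte markers 0 were higher and 1 lower (6.65 to 7.10 at 18 h and 6.80 to 7.32 at 0 h), and of 8 granulosa and theca markers 1 was higher and 2 lower (7.71 to 8.04 at 18 h and 7.63 to 8.41 at 0 h). The part of these shifts in the falls of STAR, FDX1, HSD3B1 and HSD17B4 was not tested.

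The genes whose pattern over the 12 arrays was most like each core gene differed from gene to gene. For HSD3B1 the highest Pearson correlations were with C16H1orf115 (0.967), ABHD6, a lipase of monoacylglycerols (0.965), and PDSS1, which makes the side chain of coenzyme Q (0.965). For FDX1 they were with NAP1L5 (0.965), IDH1, the cytosolic isocitrate dehydrogenase (0.941), and GLYR1 (0.940). For STAR they were with C17H22orf39 (0.954), LSS, lanosterol synthase of cholesterol synthesis (0.925), and LGALS3BP (0.925), and for CYP11A1 with CORO6 (0.957), CLYBL (0.936) and TMEM176A (0.934). Among the core genes themselves the correlation ran from 0.562 (CYP11A1 with HSD3B1) to 0.868 (HSD3B1 with FDX1). The 12 points share the 4 time groups, so these values carry the difference between times and are given with no test.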

How the data were processed

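Total RNA of 12 CL was hybridised to 1 array each. The authors deposited log2 intensities, per the labels from RMA, which corrects background, normalizes arrays and summarises probes. For RMA, the software version, the chip definition and which arrays were normalized jointly were not given in the sources used here. Of 24128 probe sets, 112 control probe sets were left out. A single symbol was given for 13292 of the other 24016, several for 86 and none for 10638, the last 2 being tested but not named.

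In R 4.3.3 with limma 3.58.1, 4 group means were fitted to 12 arrays (lmFit, contrasts.fit, eBayes). P-values were two-sided, with Benjamini-Hochberg adjustment over 24016 probe sets for each comparison, and called under 0.05 after it. The steps were tried on simulated data with independent arrays and the same spread in each group. In the real data spread differed between groups, so that trial cannot vouch for the calls. Every member probe set is reported. From the wider lists, genes with a called probe set at 18 h are named, and for each of 4 core genes the 3 genes of highest Pearson r. Members, lists, tests and alternatives were chosen with earlier results of these data known. Levels of different probe sets cannot be compared as amounts of RNA, since binding differs between probes and cattle probes may mismatch buffalo RNA. Precision is limited by the number of arrays. Signals near the top of the scale, and RMA at low signal, can make differences smaller than they are. Whether the HSD3B1 probe set also binds related transcripts was not tested.

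Replicate numbers were not treated as pairs. The alternatives left out the dimmest 40% of probe sets or used repeated quantile normalization, median centring, eBayes with trend and robust settings, control replicates 1 and 4 averaged, the replicate number as a block, a fit on 2 groups alone, the mean of a gene's probe sets, and each of 12 arrays left out in turn. One more, chosen after seeing the data, left out control replicate 3 and averaged replicates 1 and 4.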

Additional observations from a re-analysis of the deposited data

Results flagged for a closer look

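Among differences between treated times, those of 18 h against 3 h passed limma's test for 2 members, so the difference from 0 h was not the same at these times. HSD3B1 stood at -1.13 ± 0.19 log2 and FDX1 at -0.70 ± 0.14 (limma adjusted p = 0.0117 and 0.0274). Only 2 animals stand for 3 h. They were the farthest apart of any pair within a group over all probe sets, but for these genes they were close (SD 0.0066 for HSD3B1 and 0.039 for FDX1, the smallest of the 4 times). Both were lost with a fit on the 2 groups alone (limma adjusted p = 0.0831 and 0.152) and with the replicate block (0.0509 and 0.0624).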

How the results depend on the processing

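The falls of HSD3B1 and FDX1 at 18 h against 0 h were called under all 9 other settings and with each of 12 arrays left out (limma adjusted p up to 0.00899 and 0.033). That of STAR was lost with the replicate block (-0.45, adjusted p = 0.0669), without control replicate 3 with 1 and 4 averaged (-0.47, 0.0612) and without 18 h replicate 3. That of HSD17B4 held under 3 of 9. The r of deviations ran from -0.26 to 0.19 over 15 same-numbered pairs of animals and from -0.29 to 0.26 over 38 other pairs. With 2 to 4 arrays in a group, these values cannot show whether same-numbered animals were paired. The count of members called at 18 h against 0 h was 4, and 2 with the replicate block or with control replicate 3 left out and 1 and 4 averaged, 3 with median centring, controls 1 and 4 averaged or the mean of a gene's probe sets, and 5 with a fit on 2 groups alone. At 6 h it was 1, and 0 with the dimmest 40% left out, a filter that removed HSD17B1. At 18 h against 6 h it was 0, but 1 with that filter, 1 with median centring, 2 with the trend and robust settings and 1 with the mean of a gene's probe sets. At 18 h against 3 h it was 2, but 0 with the replicate block and 0 with a fit on 2 groups alone, and 3 with the filter, the trend and robust settings or the mean of probe sets, which called STAR. The wider lists had 21 called probe sets at 18 h, but 13 with control replicates 1 and 4 averaged and 11 with the replicate block. TSPO (adjusted p = 0.0385) and HSD3B7 (0.0151) were called at 18 h against 0 h with a fit on 2 groups alone, and HSD3B1 at 18 h against 6 h with the filter, centring, trend and mean settings.

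With each array left out, members called numbered 2 to 6 at 18 h against 0 h (2 without 18 h replicate 3), 0 to 2 at 6 h (0 without 6 h replicate 1 or 3, 2 without 18 h replicate 3), 0 to 1 at 3 h (1 without 3 h replicate 1), 0 to 2 at 18 h against 6 h (2 without 6 h replicate 1) and 1 to 2 at 18 h against 3 h (1 without 18 h replicate 1 or 3). By the F test there were 1 to 6 (6 without 3 h replicate 1 or 3, 1 without 18 h replicate 1), and in the wider lists 9 to 25 probe sets (9 without 18 h replicate 1, 12 without control replicate 1, 13 without control replicate 4 or 18 h replicate 3). For these fits and the other settings above, the share of all probe sets called is not given here. Such counts therefore do not show whether the members changed more than other probe sets.

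Differences that changed sign were all uncalled in the fit to all arrays, and of them HSD3B7 at 3 h against 0 h and TSPO at 18 h against 3 h were called, as higher, without 3 h replicate 1. TSPO at 6 h against 3 h was -0.015 with repeated quantile normalization and -0.040 with the replicate block. POR at 3 h against 0 h was 0.0082 with median centring, 0.018 with controls 1 and 4 averaged and 0.036 with the block. HSD11B1 at 6 h against 0 h was -0.0068 with those controls averaged and -0.0030 with the block, and without control replicate 3 and with 1 and 4 averaged it was 0.084 at 18 h and 0.012 at 3 h. With 1 array left out the ranges that crossed 0 were these, against 0 h first. For HSD11B1 they were -0.71 to 0.12 at 3 h, -0.13 to 0.32 at 6 h and -0.36 to 0.047 at 18 h. At 3 h they were -0.093 to 0.062 for POR, -0.46 to 0.86 for TSPO, -0.31 to 1.40 for HSD3B7 and -0.33 to 0.074 for the dimmer HSD17B4 probe set, and for FDX1 at 6 h -0.12 to 0.069. For 6 h against 3 h they were -0.15 to 0.038 for FDX1, -0.066 to 0.76 for HSD11B1, -0.23 to 0.17 for the dimmer HSD17B4 probe set, -0.81 to 0.89 for HSD3B7 and -0.64 to 0.68 for TSPO. For 18 h against 3 h they were -0.34 to 0.49 for HSD11B1, -0.058 to 0.19 for HSD17B1, -0.29 to 0.12 for that HSD17B4 probe set, -0.63 to 1.08 for HSD3B7 and -0.33 to 0.99 for TSPO. For 18 h against 6 h they were -0.28 to 0.0038 for CYP11A1, -0.14 to 0.061 for that HSD17B4 probe set and -0.034 to 0.38 for HSD3B7.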
